A study of Arabidopsis thaliana with 4 samples.

Results

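Seedlings of Arabidopsis thaliana were exposed to the vapour of 1 of 2 short-chain unsaturated aldehydes, (E)-2-pentenal or crotonaldehyde, and the transcript levels of the 2 exposures are set directly against each other here. The molecules share a carbonyl group next to a carbon double bond, and the chain of (E)-2-pentenal has 1 carbon more. The comparison uses 2 of the 4 arrays of the series and covers the 18697 genes, of 25426 with a matched probe, whose signal was well above background after both aldehydes. The groups were acetonitrile, the solvent that served as control and carried every volatile, (E)-2-pentenal, the unsaturated ketone 3-hepten-2-one, and crotonaldehyde. The volatiles were given at a nominal 10 µM for 30 min, so dose and time matched. All groups were seedlings of the Columbia-0 ecotype with no mutation or transgene named. The sources used here give no plant age. Each array held RNA pooled from at least 6 plants, and each group had 1 array. No p-value, standard error or interval of a difference is therefore possible, and 2-fold was used as a fixed size rule. A gene within 2-fold is not shown to respond alike to the aldehydes.

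Unsaturated aldehydes of this kind form when membrane lipids are oxidised, and they react with thiol groups such as those of glutathione and of cysteines in proteins. Plants meet them with chaperones, which are induced through heat shock factors when proteins unfold, and with glutathione S-transferases, reductases and dehydrogenases that conjugate or convert the carbonyl. Leaf damage also sets off the jasmonate pathway, in which a lipid-derived hormone removes JAZ repressors from MYC transcription factors, and the JAZ genes are themselves targets of MYC factors.

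The levels below are signals scaled so that the 75th percentile of each array is 1000. Where 4 levels are given, they stand in the order acetonitrile, (E)-2-pentenal, 3-hepten-2-one, crotonaldehyde. Differences are on the log2 scale, (E)-2-pentenal minus crotonaldehyde, so a positive value is a higher level after (E)-2-pentenal. Before scaling, the 75th percentile was 1518 for (E)-2-pentenal and 1048 for crotonaldehyde, and 73.9% and 72.6% of spots were well above background. Repeat spots of 1 probe differed between the arrays with a pooled SD of 0.113 (13 probes of 5 spots each), and the scanner software's own error model gave a median error of 0.20 per difference. Both cover measurement within an array and not the spread between plants. Crotonaldehyde alone was hybridised on a second slide with a scan of its own, while the other 3 groups lay on 1 slide scanned together, so slide and treatment cannot be told apart in any value of this comparison. Of 8 green tissue markers, all were well above background on both arrays, and of 20 root markers 14 were after (E)-2-pentenal and 12 after crotonaldehyde.

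Most genes (80.8%) were within 2-fold after the aldehydes, and where they parted the crotonaldehyde array was usually the one away from the control. Of the 18697 genes, 2523 (13.5%) were higher by 2-fold or more after (E)-2-pentenal and 1076 (5.75%) at least 2-fold lower, together 19.2%. The share of these that were higher was 70.1%, but it was 47.3% with the arrays scaled on their medians and 60.0% after quantile normalization. Median scaling moved the median of all genes from -0.04 to -0.30, and every difference with it. At 8-fold, 236 genes were higher and 35 lower, and at 32-fold 15 and 4. A further 588 genes well above background only after (E)-2-pentenal had a difference bounded at 2-fold or more, against 244 well above background only after crotonaldehyde. Such genes had to differ, so their bounds are a description. Near the 2-fold rule itself stood LTPG1, a surface lipid transfer protein at 7823 and 3913, and UGT74B1, a glucosinolate enzyme at 13326 and 26668.

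**Figure D1:**
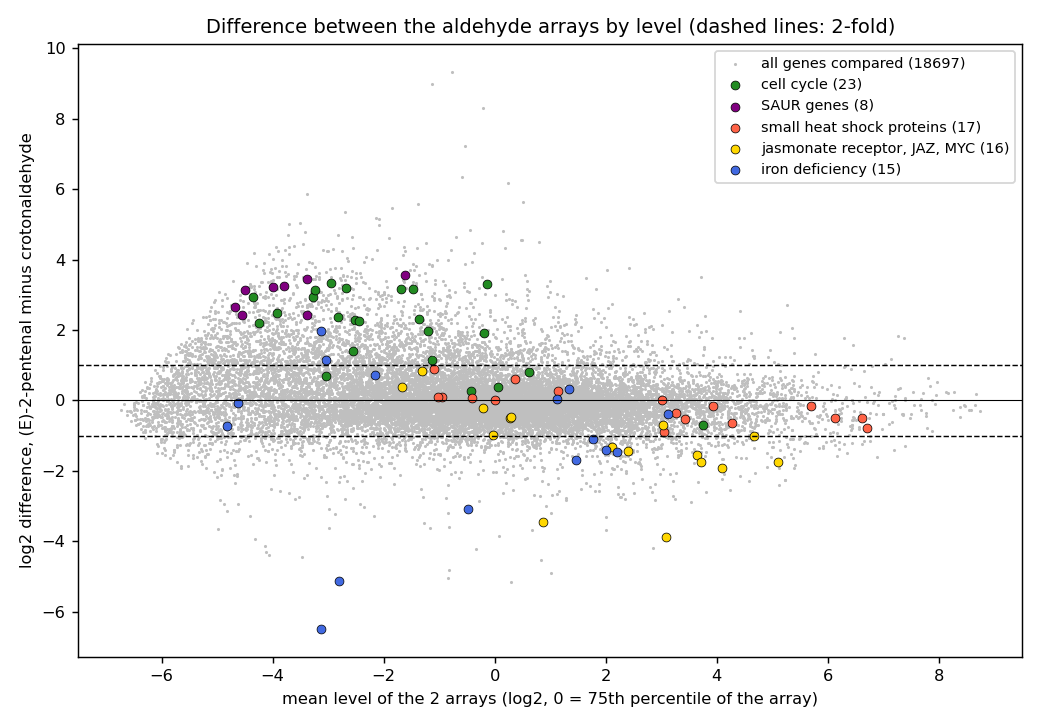
Log2 difference, (E)-2-pentenal minus crotonaldehyde, against the mean level of each of the 18697 genes on the 2 arrays, with 0 as the 75th percentile of an array, dashed lines at 2-fold and 5 gene groups in colour. Cell cycle and SAUR genes lie mostly above the upper line, jasmonate and iron deficiency genes reach below the lower one, and all 17 small heat shock proteins lie between the lines.

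The direction of the difference went with the level of the gene. Genes were ordered by mean level and cut into 4 bins of equal size. In the dimmest bin 27.2% were higher and 6.52% lower after (E)-2-pentenal, and in the brightest 4.84% were higher and 8.17% lower. The median difference ran from 0.27 in the dimmest bin to -0.15 in the brightest. Whether the lower overall signal of the crotonaldehyde array had a part in this was not tested.

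**Figure D2:**
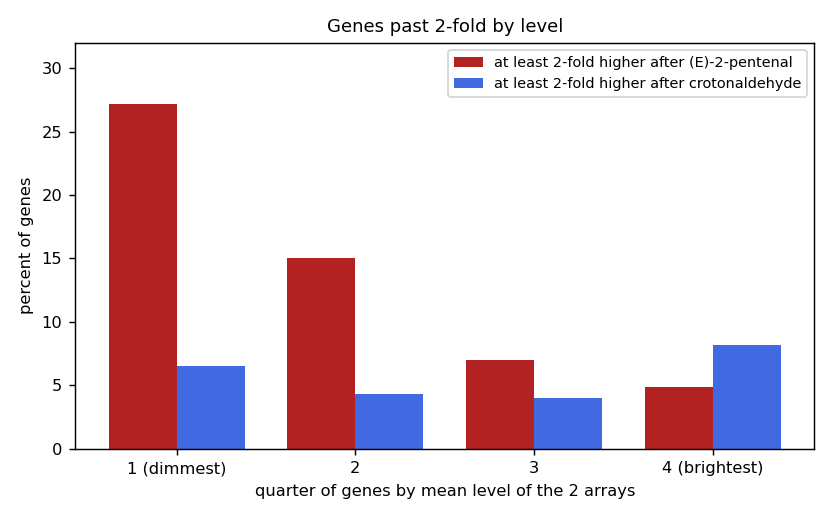
Percent of genes at least 2-fold higher (red) or lower (blue) after (E)-2-pentenal than after crotonaldehyde, for 4 equal bins of the genes by mean level. The higher share falls from 27.2% in the dimmest to 4.84% in the brightest bin, where 8.17% are lower.

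The acetonitrile array placed these differences over the 18411 genes that all 4 arrays measured well above background. Of 2508 genes higher after (E)-2-pentenal, 1973 (78.7%) were within 2-fold of acetonitrile after (E)-2-pentenal and at least 2-fold below it after crotonaldehyde. Of 1027 genes lower after (E)-2-pentenal, 658 (64.1%) were within 2-fold of acetonitrile after (E)-2-pentenal and at least 2-fold above it after crotonaldehyde. The crotonaldehyde array stood at least 2-fold below all 3 other arrays in 1815 genes (9.86%) and above all of them in 526 (2.86%). The (E)-2-pentenal array did so in 36 and 60 genes, the acetonitrile array in 409 and 91 and the 3-hepten-2-one array in 366 and 310. Arrays of the shared slide differed less from each other, with 6.35% of genes past 2-fold between (E)-2-pentenal and acetonitrile and 8.08% between (E)-2-pentenal and 3-hepten-2-one and 10.7% between 3-hepten-2-one and acetonitrile, against 19.2% between the aldehydes, and treatments and slides differ together in that contrast.

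**Figure D3:**
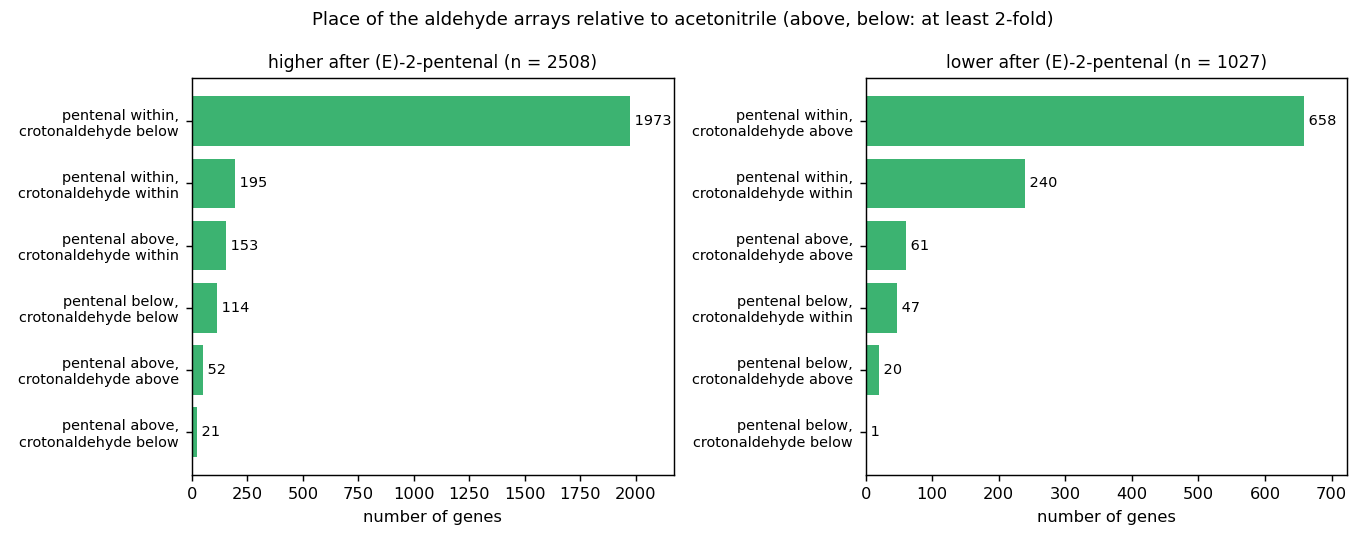
Number of genes past 2-fold between the aldehydes by where each aldehyde array stood relative to acetonitrile (above or below: at least 2-fold). The longest bars are the 1973 genes below acetonitrile after crotonaldehyde only and the 658 genes above it after crotonaldehyde only.

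The genes with the greatest excess after (E)-2-pentenal included genes of the plant surface, of defence and of the clock that were dim on the crotonaldehyde array. AT2G33850, which has no symbol in the gene table used, stood at 12830.1, 14978, 12457 and 23.3, a difference of 9.33. PDF1, a proline-rich protein of the outermost cell layer, stood at 12132, 10295, 11968 and 20.3. Both were high on 3 arrays and near the lowest measurable signal after crotonaldehyde, and the probes of PDF1 ranged from 3.84 to 8.98. AT4G29030 followed at 8.30, with levels of 13879, 15331, 13073 and 48.5, and PYK10, the beta-glucosidase stored in ER bodies, at 7.22. Next came DR4, named for its repression by drought, at 6.34, LTP6, a lipid transfer protein, at 6.18, and AT3G05727, AT5G45670 and AT1G62500 at 5.86, 5.62 and 5.58. LHY, a morning factor of the circadian clock, the fatty acid desaturase gene ADS1 and the antimicrobial thionin gene THI2.1 completed the first 12, at 5.47, 5.35 and 5.18. All 12 had their lowest level of the 4 arrays after crotonaldehyde. Among genes not well above background after crotonaldehyde, CYP81F4, a cytochrome P450 that modifies indole glucosinolates, was at least 754-fold higher after (E)-2-pentenal. AT4G22490 was at least 223-fold higher, NAS1, which makes the metal chelator nicotianamine, at least 153-fold, and DFR, an enzyme of anthocyanin synthesis, at least 128-fold.

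At the other end stood regulators of iron deficiency and genes of jasmonate and wound responses. BHLH38, a transcription factor induced when iron is short, had levels of 15.7, 12, 23.0 and 1083 and a difference of -6.49. It was near the lowest measurable signal on 3 arrays and bright only after crotonaldehyde, and its relative BHLH101 was likewise bright there alone, with 14.3, 24.4, 18.4 and 850.0. AT2G38240 stood at 590.1, 205, 2201 and 7339.9, so 3-hepten-2-one was also above the control there, and AT2G14247 at 122, 98.0, 64.5 and 3193. CYP82G1, a P450 that releases a volatile homoterpene, differed by -4.90, the stress factor gene NAC055 by -4.81 and the kinase gene MAPKKK21 by -4.54. AT1G62420, AT2G30830 and AT5G03545 followed at -4.45, -4.38 and -4.22, with UMAMIT33, a transporter of the amino acid exporter family, at -4.30 and CYP94C1, which oxidises the active jasmonate, at -4.20. In all 12 the crotonaldehyde level was at least 4-fold above acetonitrile, least in CYP94C1 at 4.11-fold, though BHLH101 was not well above background in the control. Genes well above background only after crotonaldehyde were led by BHLH100, at least 259-fold higher than after (E)-2-pentenal, then BHLH39 at 103-fold, the glycosyltransferase gene UGT76E12 at 38.9-fold and MYB21, a jasmonate-responsive MYB factor, at 8.44-fold.

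The small chaperones of the heat shock response were within 2-fold on the aldehyde arrays, and some of the large ones were higher after crotonaldehyde. None of 17 small heat shock proteins, which hold unfolding proteins in solution, passed 2-fold (2 were lower with median scaling), with differences from -0.91 to 0.88. Their median of -0.15 changed sign between settings (-0.51 to 0.06). HSP17.6II, a cytosolic class II member, stood at 9.53, 8123, 4966 and 8002, and HSP17.4 of class I at 3.59, 6072, 4197 and 11428. Both were far above acetonitrile on all 3 volatile arrays, though HSP17.4 was not well above background after acetonitrile. The locus AT1G07400 stood at 241, 82001, 74826 and 116964, a difference of -0.51. Members nearest to the other direction were ATHSP22.0, an ER form at 633 and 343, and HSP18.2 at 1606 and 1052. The list also held AT5G47600, which was not well above background after crotonaldehyde and at least 15.3-fold higher after (E)-2-pentenal. Class I members are close in sequence, so a probe can bind transcripts of a relative.

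Of 22 larger chaperones and co-chaperones, 6 were lower by 2-fold or more after (E)-2-pentenal and none higher, against 5.75% of all genes lower and 13.5% higher. The median was -0.75 (-1.01 to -0.54 over the settings), and 12 were lower with median scaling. HSP70B, a heat-induced HSP70, stood at 49.4, 3274, 1451 and 11492, which put crotonaldehyde 3.51-fold above (E)-2-pentenal. BAG6, a co-chaperone of HSP70, stood at 689, 48880.4, 34232 and 136058. HOP3, which links HSP70 to HSP90, differed by -1.31, the HSP70 locus AT3G09440 by -1.25, HSP90.1 by -1.22 and HSP101, which frees aggregated proteins, by -1.08. In each of these 6 genes acetonitrile was the lowest array and crotonaldehyde the highest. The ER folding list had 3 of 20 genes lower after (E)-2-pentenal and none higher, with a median of -0.57 (-0.83 to -0.45) and 6 lower with median scaling. They were P58IPK, an ER co-chaperone at 56912, 56791, 21086 and 131646, the disulfide isomerase gene PDIL1-2 at -1.18 and ERDJ3A, another ER co-chaperone, at 37.8, 1369, 1611 and 2942. ER chaperones BIP1 and BIP2 stayed within the rule at -0.86 and -0.75.

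Among 19 heat shock factors 3 (15.8%, beside 13.5% of all genes) were higher after (E)-2-pentenal and none lower, but with median scaling 1 was higher and 3 were lower. HSFA4A, a factor linked to oxidative stress, stood at 1358, 9518, 4099 and 4466 and was 2.13-fold higher after (E)-2-pentenal than after crotonaldehyde, with both above acetonitrile. HSFB4, a factor of root tips, and HSFC1 were higher with the crotonaldehyde array as the lowest of the 4, HSFB4 at 224, 177, 242 and 35.6 and HSFC1 at 627, 384, 320.2 and 166. HSFA7A, itself heat-induced, leaned to crotonaldehyde at 1777 and 3184 and HSFA7B to (E)-2-pentenal at 109 and 67.0, both within 2-fold. None of 23 proteasome subunits passed 2-fold, with differences from -0.32 to 0.46, and none of 13 reference genes did, with -0.52 to 0.56.

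Detoxification genes were mostly within 2-fold, and the balance of those that parted depended on the scaling. Of 22 tau class glutathione S-transferases, which join glutathione to reactive molecules, 6 were higher after (E)-2-pentenal and 1 lower, against 5 and 3 with median scaling and 3 and 1 with normexp background correction. GSTU24 stood at 163, 2158, 4341 and 633 and GSTU25, its neighbour in the genome, at 10.6, 61.8, 359 and 12. Both were above acetonitrile after (E)-2-pentenal and highest after 3-hepten-2-one, and their sequences are close. GSTU17, tied to light and stress signalling, stood at 1505, 1924, 8585 and 355 and GSTU26 at 503, 521, 551 and 156, both with the crotonaldehyde array lowest, and GSTU9 differed by 1.47 and GSTU10 by 1.07. GSTU5, the 1 member lower after (E)-2-pentenal, stood at 13882, 37650.0, 60459 and 96510.1. The phi class had 2 of 8 higher (25.0%, beside 13.5% of all genes) and none lower, GSTF11 at 1.47 and GSTF3 at 1.41. Median scaling gave 2 and 1. GSTF8, an early stress marker, was nearly level at 26288 and 29341.

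Of 29 genes for carbonyl and xenobiotic detoxification, 4 (13.8%, beside 13.5% of all genes) were higher after (E)-2-pentenal and none lower, with a median of 0.38 (0.03 to 0.47), and median scaling gave 3 and 1. AKR4C9, an aldo-keto reductase that reduces reactive carbonyls, stood at 64.7, 171, 328 and 28.5, above acetonitrile after (E)-2-pentenal and below it after crotonaldehyde. ALDH2B7, a mitochondrial aldehyde dehydrogenase, stood at 401, 457, 557 and 157. The glucosyltransferase UGT73C5 was strongly above acetonitrile after both aldehydes, at 749, 17267, 18395 and 8365, and 2.06-fold higher after (E)-2-pentenal than after crotonaldehyde, and its close relative UGT73C6 differed by 1.38. In the sulfate and glutathione list 4 of 16 (25.0%) were higher after (E)-2-pentenal and none lower, whereas median scaling gave 2 higher and 2 lower. SERAT2;1, a serine acetyltransferase that supplies the cysteine precursor, stood at 2126, 41761, 60928 and 12187, 3.43-fold higher after (E)-2-pentenal. The sulfate transporter gene SULTR1;2 differed by 1.62, LSU1, a gene of low sulfur response, by 1.09 and SDI1, a regulator of glucosinolate synthesis under low sulfur, by 1.00. The median of this list, 0.18, changed sign between settings.

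Redox genes had 5 of 15 (33.3%) higher after (E)-2-pentenal and 1 (6.67%) lower, beside 13.5% and 5.75% of all genes. With median scaling these were 4 and 2, and the list median of 0.09 changed sign over the settings (-0.17 to 0.69). TRX5, a cytosolic thioredoxin, was the lower one, at 9098, 10135, 13646 and 45169.9, with only the crotonaldehyde array far above the rest. OXI1, a kinase activated by peroxide, stood at 47.5, 2182, 3423 and 679, above acetonitrile on all 3 volatile arrays and lowest of these after crotonaldehyde. The catalase genes CAT2 and CAT1, whose enzymes remove peroxide, differed by 1.97 and 1.51, and the superoxide dismutase genes CSD2 and CSD1 by 1.52 and 1.26. In these 4 the crotonaldehyde level was the lowest of the 4 arrays. The mitochondrial list had 2 of 10 higher (20.0%, beside 13.5% of all genes) and 1 lower (10.0%, beside 5.75%). Median scaling gave 1 and 1. NDB2, an alternative NADH dehydrogenase, was highest after crotonaldehyde at 655, 915, 1249.8 and 3657, and NDA1, a relative on the inner face of the membrane, was lowest there at 2356, 2607, 6937 and 694. OM66, an outer membrane ATPase, stood at 2785, 9410.1, 4258 and 4490.4, while AOX1A, the alternative oxidase that marks mitochondrial stress, was level at 8084 and 8305.

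Most of the genes far above the control after both aldehydes were within 2-fold of each other, in about the same share as all genes. Of 93 genes at least 8-fold above acetonitrile on both aldehyde arrays, which share that control, 75 were within 2-fold of each other, 6 were higher and 12 lower after (E)-2-pentenal, with a median difference of -0.23. Over all genes, 80.8% were within 2-fold. The 6 with the smallest difference were the transporter gene ABCA7 at 665 and 664, APR3, which reduces activated sulfate, at 19544 and 19349.5, GSTU7 at 19472 and 19704, BAP1, a membrane-binding inhibitor of cell death, at 6958 and 6842, the P450 gene CYP81D11 at 8328 and 8156, and the carnitine transporter family member OCT5 at 3153 and 3223. None of these 6 differed by more than 0.03. They were taken from the end of the ranking, so their closeness is set by the choice.

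The jasmonate pathway stood at higher levels after crotonaldehyde, from synthesis to repressors. Of 18 genes for synthesis and turnover 11 were lower by 2-fold or more after (E)-2-pentenal and none higher, with a median of -1.30 (-1.57 to -1.10). LOX3, a lipoxygenase of the first step, stood at 15895, 17075, 30620.3 and 82028, and AOS, which makes the allene oxide, at 30260.2, 21675, 74397 and 81871. AOC1, the cyclase of the next step, stood at 10101, 5682, 33527 and 34596. The crotonaldehyde and 3-hepten-2-one arrays were both above acetonitrile in AOS and AOC1, and the (E)-2-pentenal array was not. AOC2 and AOC3 differed by -2.09 and -1.53, though the AOC probes can bind each other's transcripts. JAR1, which couples jasmonate to isoleucine, differed by -1.37, and the enzymes that turn the hormone over, CYP94C1 and CYP94B3, by -4.20 and -1.71. CYP94C1 stood at 7500.0, 1682, 1309.7 and 30814, below acetonitrile after (E)-2-pentenal and above it after crotonaldehyde.

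Among 16 compared genes of the receptor, JAZ and MYC list 9 were lower after (E)-2-pentenal and none higher, with a median of -1.17 (-1.44 to -1.02). A further 1 was well above background only after (E)-2-pentenal, with a bound of 2-fold or more. JAZ7, a repressor, stood at 4447, 2212, 1933 and 32551 and JAZ8 at 907, 550.1, 469.7 and 6035. JAZ6 stood at 21229, 8752, 13149 and 33044. In these 3 the (E)-2-pentenal level was under that of acetonitrile and the crotonaldehyde level was the highest. JAZ1, JAZ9 and JAZ2 differed by -1.75, -1.74 and -1.54, JAZ5 and JAZ10 by -1.45 and -1.33, and MYC2, the factor the JAZ proteins hold back, by -1.02.

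The genes that lie downstream of jasmonate did not follow in 1 direction, with 4 of 10 higher after (E)-2-pentenal and 2 lower. The vegetative storage protein gene VSP1 stood at 153407, 98402, 245784 and 15070.1 and VSP2 at 86882, 51951, 146295 and 8885. Both were highest after 3-hepten-2-one and lowest after crotonaldehyde, and their probes can share transcripts. THI2.1 stood at 3112, 1370.3, 904 and 37.9 and PR4, a chitin-binding defence protein, at 10000.5, 3600.5, 3267 and 1251. TAT3, a tyrosine aminotransferase, was higher after crotonaldehyde at 3301, 2217, 4698 and 8645. The defensin genes were low after both aldehydes, PDF1.2 at 1868, 31.3, 1815 and 57.3 and PDF1.2b at 395, 11.9, 431 and 29.9, and share sequence. The median of the list changed sign between settings (-0.50 to 1.53).

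**Figure D4:**
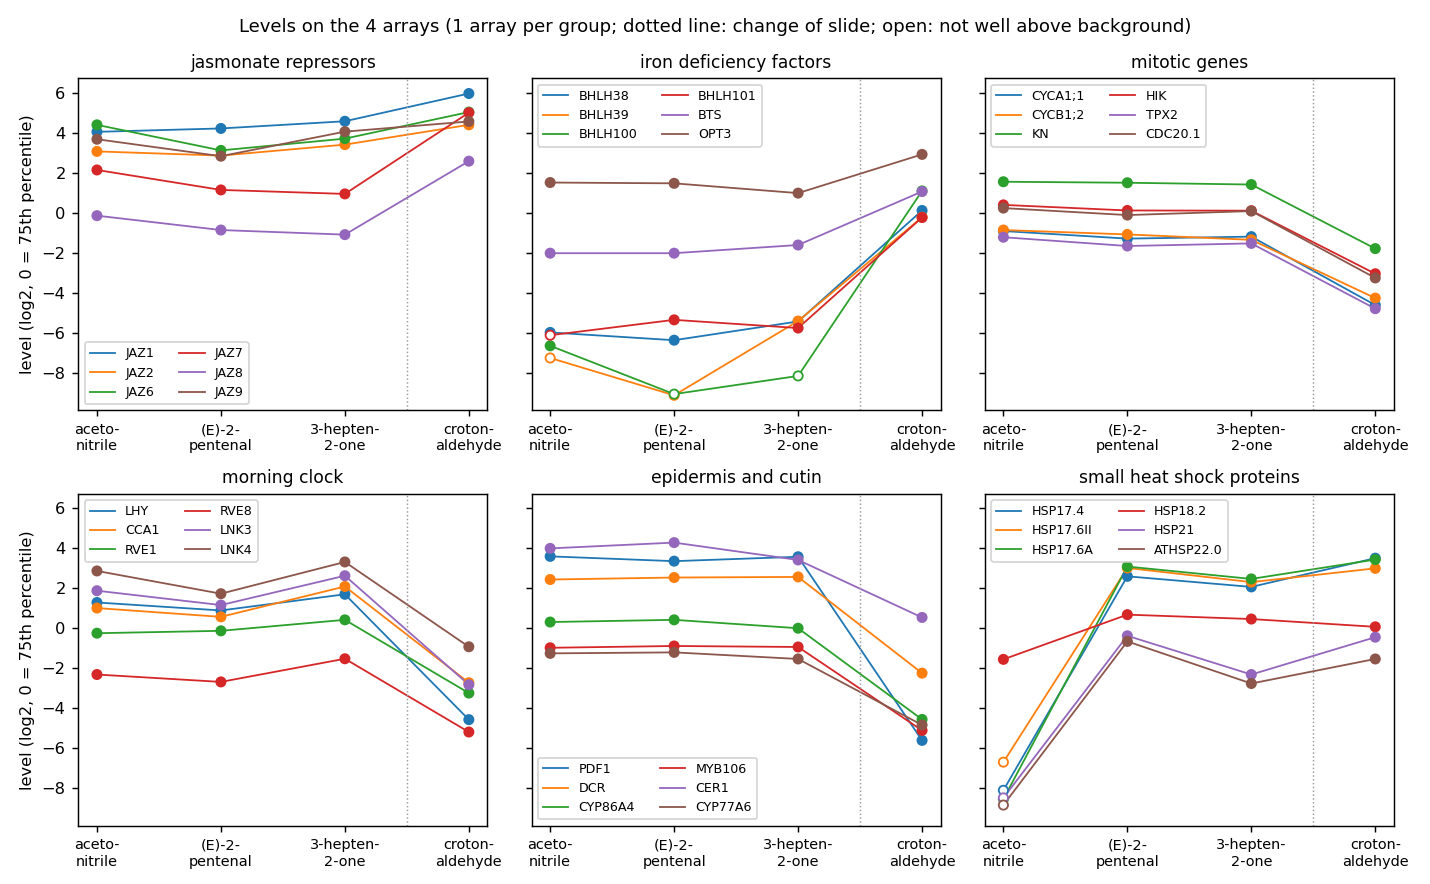
Log2 levels of 6 genes from each of 6 groups on the 4 arrays, 1 array per group, with 0 as the 75th percentile of an array, open points where the signal was not well above background and a dotted line between the slides. JAZ and iron deficiency genes are highest after crotonaldehyde, mitotic, morning clock and epidermal genes are lowest there, and small heat shock proteins lie far above acetonitrile after all 3 volatiles.

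Genes of other defence hormones were divided. The salicylic acid list had 3 of 17 higher after (E)-2-pentenal and 3 lower, 17.6% each way beside 13.5% and 5.75% of all genes. With median scaling these were 2 and 4. SARD1, a factor that switches on salicylic acid synthesis, stood at 641, 5164, 220.3 and 1146, and NIMIN1, a regulator of the receptor NPR1, at 379, 2534, 122 and 311. Both were highest after (E)-2-pentenal, and CBP60G, a relative of SARD1, had the same highest array at 573, 3352, 1929 and 1628. The late markers ran the other way, PR2 at 469, 772, 797 and 2006, PR5 at 1495, 1775, 2445 and 4021 and the dim PR1 at 7.25, 18.6, 15.1 and 80.6, all highest after crotonaldehyde. PR1 was not well above background after acetonitrile. Of 24 WRKY factors 11 were higher after (E)-2-pentenal and 2 lower, with a median of 0.84 (0.58 to 0.97). WRKY53, a factor of defence and senescence, stood at 383, 3662, 3356 and 598. WRKY38 and WRKY60 stood at 351, 1227, 61.4 and 236 and at 314, 987, 228 and 157, and WRKY70, a factor between salicylic acid and jasmonate, at 11651, 39196, 8384 and 11445. All 4 of these had their highest level after (E)-2-pentenal. WRKY18, a relative of WRKY60, was higher after crotonaldehyde at 29697, 35881, 35187 and 92073.

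Ethylene response factors had 3 of 18 members (16.7%, beside 13.5% of all genes) higher after (E)-2-pentenal and 5 (27.8%, beside 5.75%) lower. Their median of 0.02 changed sign over the settings (-0.24 to 0.18). ERF5 stood at 221, 6062, 5376 and 1222 and ERF105 at 1703, 14639, 5351 and 3603, both stress-induced activators that were above acetonitrile on every volatile array and lowest of these after crotonaldehyde. ABR1, a repressor of abscisic acid responses, stood at 160.3, 71.9, 341 and 405 and RAP2.6 at 273, 46.2, 594 and 201, where (E)-2-pentenal was the lowest array. ERF1A, an activator, differed by -1.17, ERF2 by -1.50, ERF4, a repressor, by -1.06 and ERF9 by 1.06. In the ethylene synthesis and perception list 3 of 14 (21.4%) were higher and 1 (7.14%) lower, beside 13.5% and 5.75% of all genes. Normexp gave 1 and 1. ACS11, which makes the ethylene precursor, stood at 1039, 774, 2873 and 169, ETR2, a receptor, at 349, 107, 89.9 and 43.6, and EBF1, an F-box protein that removes the ethylene factor EIN3, at 966, 568, 969 and 2307. EBF1 alone of these 3 was highest after crotonaldehyde.

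The ZAT and AZF zinc finger factors had 4 of 10 (40.0%) higher after (E)-2-pentenal and 1 (10.0%) lower, beside 13.5% and 5.75% of all genes. Normexp gave 3 and 1, and the list median of -0.04 changed sign over the settings (-0.30 to 0.10). ZAT11 stood at 25.9, 1199.8, 3735 and 216 and ZAT7 at 447, 6121, 4609.7 and 2214, above acetonitrile on all volatile arrays, and AZF1 at 126, 632, 195 and 181. The best known members were within 2-fold, ZAT12 at 56584 and 67170.2 and ZAT10 at 49438 and 72030.2. AT3G53600 was lower after (E)-2-pentenal, at 88.3, 47.9, 379.8 and 316, and AT2G28200 higher, at 187, 112, 107 and 39.9. Of 13 compared NAC factors 3 were lower after (E)-2-pentenal and none higher. A further 2 were well above background only after (E)-2-pentenal, with bounds of 2-fold or more. The lower ones were NAC055, NAC019 and RD26, close relatives that act in jasmonate and abscisic acid responses. NAC055 stood at 293, 107, 202 and 2999.6, NAC019 at 615, 184, 727 and 1688 and RD26 at 2123, 1134, 2796 and 14401. All 3 were under acetonitrile after (E)-2-pentenal and highest after crotonaldehyde, while ATAF1 and NAC032, of another branch of the family, stood at 15105 and 18271 and at 10289 and 12569.

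Cold and drought regulators also divided. Of 9 DREB and CBF factors 3 (33.3%) were higher after (E)-2-pentenal and 2 (22.2%) lower, beside 13.5% and 5.75% of all genes. Median scaling gave 2 and 3, and the list median of 0.67 ran from -0.92 to 0.75. CBF2 and CBF1, members of 1 gene cluster that switch on cold genes, stood at 177, 392, 95.2 and 76.5 and 86.6, 310.1, 6.62 and 149. CBF1 was not well above background after 3-hepten-2-one. DDF1, a factor of salt stress, stood at 1531, 1513, 197 and 9021 with crotonaldehyde highest, and its relative DDF2 at 444, 324, 32.3 and 95.7 with crotonaldehyde under the control. DREB2C stood at 16.8, 159.5, 18.7 and 484, and DREB2A, a factor of drought and heat, at 451, 22004, 3809 and 41708, short of the rule. The median of the cold, dehydration and abscisic acid list was 0.00 and changed sign over the settings (-0.30 to 0.12). Median scaling gave 1 higher and 6 lower. In the main setting 2 of 27 (7.41%) were higher after (E)-2-pentenal and 5 (18.5%) lower, beside 13.5% and 5.75% of all genes. The lower ones encode protective proteins, COR15A at 13275, 17932, 5957 and 67526, COR15B at 18900.0, 23524, 1151 and 73122, ERD10 at 25765, 18064, 10648 and 54625, COR47 at 55267, 45534, 20971 and 119159.9 and RD29A at 3908, 3112, 980.5 and 6543. Each had its highest level after crotonaldehyde and its lowest after 3-hepten-2-one. COR15A and COR15B are near-identical neighbours. The higher ones were CYP707A2, which breaks down abscisic acid, at 1.65 and HAI1, a phosphatase of abscisic acid signalling, at 1.20. Calmodulin-like and MAP kinase genes had none of 12 higher and 2 lower, CML39 at 288, 125, 2021 and 645 and CML38 at 6903, 27288, 27346 and 58164.

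Growth genes that respond to auxin were lower after crotonaldehyde. All 8 compared SAUR genes, which promote cell expansion, were higher after (E)-2-pentenal, of 19 in the list. A further 7 were well above background only after (E)-2-pentenal with bounds of 2-fold or more, and SAUR61 and SAUR68 had no such bound. SAUR14 stood at 6069, 1117, 1449 and 95.6, SAUR22 at 1652, 318, 349 and 28.9 and SAUR63 at 2933, 221, 383 and 23.4. These were already lower after (E)-2-pentenal and 3-hepten-2-one than after acetonitrile and were lowest after crotonaldehyde. SAUR genes lie in clusters of near-identical copies, the crotonaldehyde signals were near the lowest measurable, and the list median of 3.18 ran from 1.41 to 3.26 over the settings. Of 16 Aux/IAA and GH3 genes 12 were higher after (E)-2-pentenal and none lower, with a median of 1.59 (1.14 to 1.68). GH3.6, which conjugates auxin to amino acids, stood at 994, 835, 2697 and 33.7, GH3.3 at 935, 517, 1980.4 and 26.7 and GH3.17 at 465, 291, 959 and 15.5. In these the 3-hepten-2-one array was highest and the crotonaldehyde array lowest. GH3.2 differed from them, at 20.7, 255, 23.8 and 15.7, with only (E)-2-pentenal high. GH3.5 differed by 3.46, and among the Aux/IAA repressors IAA14 did by 2.29 and IAA6 by 2.08. Auxin carriers had 4 of 6 higher and none lower, among them the efflux carrier PIN3 at 1.39 and the influx carriers LAX3 at 1.68 and AUX1 at 1.19.

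Among compared genes, those of shade, brassinosteroid and gibberellin past 2-fold were all higher after (E)-2-pentenal, and cytokinin regulators were divided. The PIF and shade list had 10 of 15 higher after (E)-2-pentenal and none lower, with a median of 1.53 (0.59 to 1.62). HFR1, which limits the shade response, stood at 119, 95.6, 86.8 and 16.4, the growth factor PRE1 at 132, 287, 201 and 56.7 and the homeobox gene HAT2 at 237, 106, 221 and 23.9. PIF5, a light-regulated factor of stem growth, stood at 2945, 1888, 3509.8 and 512 and PRE6 at 459, 393, 445 and 109.8. All 5 were lowest after crotonaldehyde. Brassinosteroid and gibberellin genes had 6 of 13 higher and none lower, but 3 higher with normexp. Of genes well above background on 1 aldehyde array only, 1 was bounded at 2-fold or more in each direction. GASA4, a gibberellin-regulated peptide, stood at 10145, 10120.3, 5203 and 1654, the brassinosteroid enzyme gene BR6OX2 at 286, 133, 183 and 28.7 and ROT3, of the same pathway, at 65.6, 98.9, 147 and 25.7, while GA20OX1 and GASA6 differed by 1.68 and 1.25. Type A cytokinin regulators had 3 of 6 higher and 1 lower (2 and 1 with median scaling), and their median of 0.60 changed sign over the settings (-0.89 to 0.68). They were ARR7 at 1411, 1288, 1963 and 224, ARR5 at 479.6, 885, 264 and 329, ARR15 at 232, 230.0, 321 and 106 and ARR16, the lower one, at 782, 399, 219.7 and 1337.

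The morning and evening arms of the circadian clock, which repress each other over the day, differed in opposite directions. Of 13 morning genes 8 were higher after (E)-2-pentenal and none lower, with a median of 2.50. LHY stood at 2446, 1853, 3248 and 41.9 and CCA1, its partner, at 2014, 1482, 4265 and 150.4. LNK3 stood at 3688, 2229.6, 6199.9 and 141 and LNK4 at 7289, 3324, 9954 and 525, members of a family of coactivators that work with the RVE factors. In these 4 the crotonaldehyde array was lowest and the 3-hepten-2-one array highest, and RVE1, a factor between clock and auxin, had the same order of extremes with (E)-2-pentenal above acetonitrile, at 839, 914, 1341 and 105. The median of the morning list was 0.12 over the brighter genes alone, those with a mean signal over that of the median gene. Of 16 evening genes 1 was higher after (E)-2-pentenal and 5 lower, with a median of -0.82 (-1.08 to -0.63) and 9 lower with median scaling. PRR3 stood at 429, 437, 4.98 and 1709, ELF4, part of the evening complex, at 3526, 4555, 48.3 and 11965 and LUX, its DNA-binding partner, at 1783, 1700.4, 126 and 4049. TOC1, which represses the morning genes, stood at 1152, 1295, 319 and 2627 and the dim ELF4-L1 at 27.0, 26.1, 8.87 and 90.7. In these 5 genes the level was highest after crotonaldehyde and lowest after 3-hepten-2-one, and (E)-2-pentenal was within 2-fold of acetonitrile. PRR3 was not well above background after 3-hepten-2-one. ELF4-L3 ran the other way at 155, 133, 390.0 and 51.0. The sources used here give no hour of treatment or harvest, and its part was not tested. Of 6 CDF and CONSTANS factors of day-length response 4 were higher after (E)-2-pentenal and none lower, COL2 at 6038, 4040.3, 6107 and 183, COL1 at 2134, 1279.8, 2253 and 171, CDF3 at 2846, 1037, 3334 and 225 and CDF2 at 765, 1079, 959 and 269.9.

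Among iron genes, the deficiency factors of the BHLH family were higher after crotonaldehyde, and other members of the uptake list went both ways. BHLH38, BHLH39, BHLH100 and BHLH101, the 4 factors that raise iron uptake, were all high only after crotonaldehyde. BHLH39 stood at 6.5, 1.78, 23.4 and 856 and BHLH100 at 9.88, 1.84, 3.47 and 2146. BHLH39 was not well above background after acetonitrile and (E)-2-pentenal, and BHLH100 was not after (E)-2-pentenal and 3-hepten-2-one. BTS, a ubiquitin ligase that restrains the response and is itself induced by low iron, stood at 247, 247, 328 and 2100.2. Of 15 compared genes in the iron deficiency list 7 were lower after (E)-2-pentenal and 2 higher, with a median of -0.74 (-1.24 to -0.56). The further lower members were FRO3, a mitochondrial iron reductase, at -1.70, OPT3, a phloem iron carrier, at -1.46, ZIF1, a vacuolar carrier, at -1.40 and NRAMP4, a vacuolar metal exporter, at -1.09. FIT, the root factor that pairs with the BHLH proteins, stood at 89.8, 181, 87.6 and 81.9, and NAS3, a nicotianamine synthase gene, at 250.1, 229, 499.7 and 57.9. NAS1 stood at 1367, 1543, 1486 and 7.65, not well above background after crotonaldehyde, and NAS2 was at least 6.57-fold higher after (E)-2-pentenal. MYB72, IRT1 and F6'H1, genes of iron uptake in roots, gave no difference or bound. Of 4 ferritins, which store iron, 2 were higher after (E)-2-pentenal. FER1 stood at 2039, 2169.5, 9687 and 214 and FER4 at 6978, 7805, 7151 and 1548, both lowest after crotonaldehyde. FER3 was level at 2097 and 2393, and FER2, the seed ferritin, was dim at 55.3 and 31.2.

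Photosynthesis genes were mostly within 2-fold, with an exception in the antenna. Of 19 light-harvesting genes 7 were higher after (E)-2-pentenal and 1 lower. LHCB2.3 stood at 65368, 44419, 83288 and 3929 and LHCB2.1 at 5412, 4203, 7594 and 532, members of the main antenna of photosystem II, and LHCB1.4 at 332094, 289808, 311421 and 81886. Each was lowest after crotonaldehyde and stayed within 2-fold across the other 3 arrays. LHCB4.2, of a minor antenna, differed by 1.77 and its relative LHCB4.3 by -2.45, with levels of 1375, 1989, 1233 and 10888. LHCB copies are close in sequence. Of 28 genes for photosystem cores, electron carriers and the Calvin cycle none were higher and 3 lower, the Calvin cycle genes GAPB at 79755, 88979, 119181 and 238741, SBPASE at 23917, 26000.1, 38125 and 67538 and PRK at -1.03.

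Most of the compared genes of the epidermis and its cuticle were lower after crotonaldehyde. Of 35 compared genes for epidermal identity, wax and cutin 19 were higher after (E)-2-pentenal and 1 lower, with a median of 1.12 (0.86 to 1.25). CYP86A4, which oxidises cutin fatty acids, stood at 1238, 1339, 997 and 42.2, DCR, an acyltransferase of cutin, at 5413, 5829, 5954 and 209.9 and MYB106, a factor of epidermal cell shape and cuticle, at 507, 539, 522 and 28.7. CER1, which makes wax alkanes, stood at 15997, 19609.9, 10686 and 1458, and CYP77A6, another cutin enzyme, differed by 3.64. Each of these 5 stayed within 2-fold across the 3 arrays of the shared slide and was low after crotonaldehyde. The summed level of 5 epidermal markers was 38345, 33162, 38420.4 and 15491. Only 2 of these 5 were past 2-fold, with a median of 0.78. PDF1, which weighs heavily in the sum, stood at 10295 after (E)-2-pentenal and 20.3 after crotonaldehyde. Stomatal and trichome genes had 3 of 7 higher and none lower, with a median of 0.61 and 1 higher with normexp. The 3 were TMM, a receptor of stomatal spacing, at 1617, 717, 866 and 27.8, and the stomatal peptide genes EPF1 at 154, 112, 162 and 31.5 and EPF2 at 116, 52.4, 66.3 and 18.3. Not well above background after crotonaldehyde were GL1, a trichome factor at least 28.1-fold higher after (E)-2-pentenal, SDD1, a stomatal protease, at 15.4-fold, and the stomatal lineage factors SPCH at 6.45-fold and MUTE at 4.77-fold. In whole seedlings, fewer cells of a type and less RNA per cell cannot be told apart.

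Genes of cell division were lower after crotonaldehyde in most of their list. Of 23 compared cell cycle genes 18 were higher after (E)-2-pentenal and none lower, with a median of 2.29. CYCA1;1, a mitotic cyclin, stood at 533, 408, 439.7 and 40.6 and CYCB1;2, another, at 551, 473, 393 and 51.7. KN, a syntaxin that builds the cell plate, stood at 2942, 2852, 2671 and 289. HIK, a kinesin of cell division, and CDC20.1, an activator of the anaphase complex, differed by 3.17 and 3.16. Each of these 5 stayed within 2-fold across the shared slide and was 8.91-fold to 10.1-fold higher after (E)-2-pentenal than after crotonaldehyde. The summed level of 4 dividing cell markers was 4099, 3866, 3611 and 443, and the list median ran from 0.60, over those brighter genes, to 2.37. Root markers had 4 of 12 compared members higher and 1 lower. The summed level of all 20 root markers, with those not well above background, was 2875, 2472, 2946 and 1041. GL2, a factor of root hair and trichome patterning, stood at 614, 646, 685 and 34.4, HKT1, a sodium carrier, at 116, 80.1, 77.8 and 19.2, SHR, a factor that moves between root layers, at 626, 404, 464 and 138 and PHO1, a phosphate exporter, at 514, 419, 489 and 194. WOX5, a factor of the root stem cell niche, was dim on all arrays and higher after crotonaldehyde at 19.6, 17.6, 34.7 and 46.1. The share of cell types in each sample and its part in these results were not tested.

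Most compared genes of the cell wall lists were also lower after crotonaldehyde than after (E)-2-pentenal. Of 22 xyloglucan enzymes 13 were higher after (E)-2-pentenal and 1 lower, with a median of 1.20 (0.93 to 1.28). The differences of 6 of the 22 were negative, down to -1.41. XTH16 stood at 8000.0, 5042, 8730.3 and 430.1, XTH9 at 34809, 21047, 15398 and 3643 and XTH20 at 272, 692, 690.2 and 87.5. XTH20 was above acetonitrile on the (E)-2-pentenal array, and all 3 were lowest after crotonaldehyde. Expansins, which loosen walls, had 10 of 13 higher and none lower, with a median of 1.31 (1.05 to 1.81). The summed level of the compared expansins was 64981, 37950.3, 31792 and 28522, below acetonitrile on all 3 volatile arrays. EXPB3 stood at 1186, 1005, 1302 and 109, EXPA1 at 2711, 2103, 2393 and 249 and EXPA10 at 467, 514, 889 and 66.4, and EXPA3 and EXPA14 differed by 2.17 and 1.85.

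Among genes of defence metabolism, 7 of 12 in the ER body list and 8 of 17 in the flavonoid list were higher after (E)-2-pentenal. Of 12 ER body genes, which serve a glucosidase store against herbivores, 7 were higher and 1 lower, with a median of 1.23 (0.97 to 1.70). PYK10 stood at 17818, 8423, 31450.0 and 56.4, JAL23, a lectin that associates with it, at 12395, 5126, 14976 and 253 and MEB1, an ER body membrane protein, at 2468, 1374, 3338 and 215. BGLU18, the glucosidase of wound-induced ER bodies, stood at 160299.9, 83645, 168742 and 20111. All 4 were below acetonitrile after (E)-2-pentenal, by less than 3-fold, and lowest after crotonaldehyde. NAI1, the factor that controls ER bodies, ran the other way at 540.5, 209.9, 1262 and 677. Flavonoid and phenylpropanoid genes had 8 of 17 compared members higher and none lower, with a median of 0.93 (0.67 to 1.03). PAL4, an enzyme of the entry step, stood at 561, 637, 798 and 39.1, TT4, the chalcone synthase, at 2436, 2459, 7732 and 492 and F3H, a later step, at 1173, 1602, 4361 and 208. TT7 differed by 1.55. Among those not well above background after crotonaldehyde, the excess after (E)-2-pentenal was at least 81.8-fold for UF3GT, a flavonoid glucosyltransferase, and at least 12.5-fold for LDOX, next to DFR in anthocyanin synthesis.

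Most compared genes of the glucosinolate lists were within 2-fold. The aliphatic branch had 4 of 16 (25.0%, beside 13.5% of all genes) higher after (E)-2-pentenal and none lower, falling to 1 with median scaling and 2 with normexp. They were the regulator MYB29 at 1.38, the chain elongation genes MAM3 at 1.15 and BCAT4 at 1.14, and FMOGS-OX1 at 1.01. The indolic and camalexin list had 2 of 11 higher and 2 lower, 18.2% each way beside 13.5% and 5.75% of all genes. Median scaling gave 2 and 4. A further 1 was well above background only after (E)-2-pentenal, with a bound of 2-fold or more, and none had such a bound the other way. The indole glucosinolate P450 gene CYP81F4, given above, was at least 754-fold higher after (E)-2-pentenal. MYB51, a regulator of the branch, stood at 708, 2827, 990.4 and 701 and CYP81F2, which modifies its product, at 258, 826, 1512 and 235, whereas SOT16, a sulfotransferase of the core pathway, stood at 33998, 27499, 43797 and 74853, highest after crotonaldehyde.

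**Figure D5:**
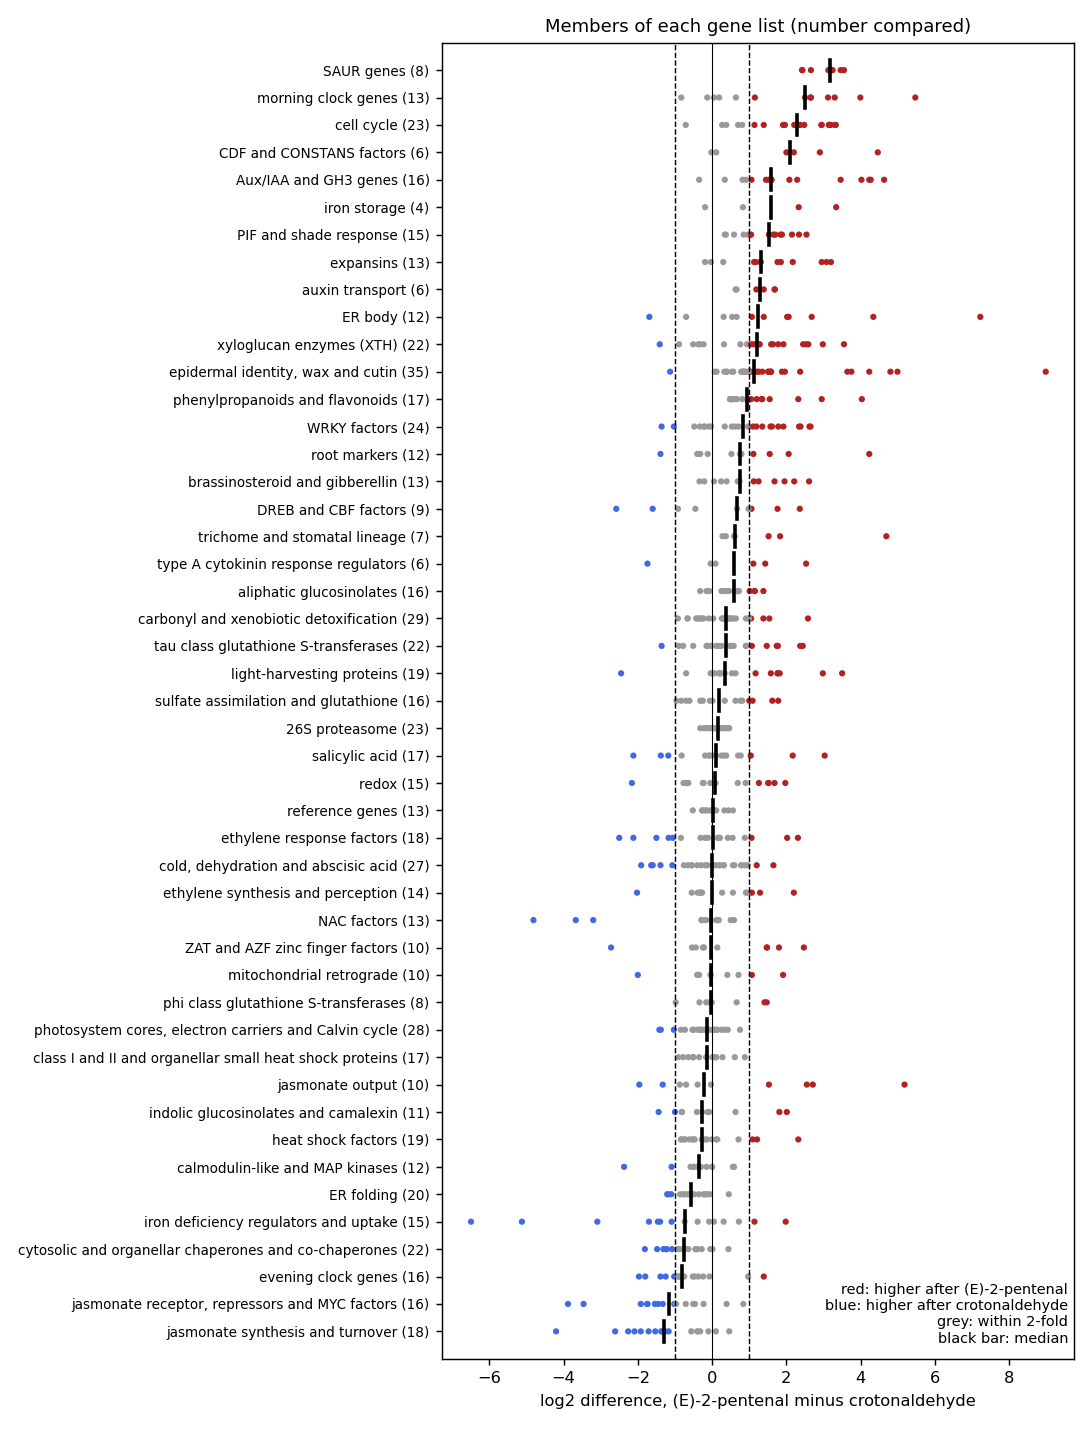
Log2 differences, (E)-2-pentenal minus crotonaldehyde, of the compared members of 47 gene lists, with the median of each list as a black bar, lists in order of median, and dashed lines at 2-fold. Medians run from 3.18 for SAUR genes to -1.30 for jasmonate synthesis, and reference genes and proteasome subunits lie between the dashed lines.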

How the data were processed

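RNA of each seedling pool was Cy3-labelled and measured on a one-colour Agilent array, per the labels' protocols. Linear spot intensity is what the deposited scanner files contain. Agilent Feature Extraction made them, in version 10.10.1.1 per the file headers and 9.1 per the submitters' processing notes. The intensity used is the processed signal, background-subtracted within each array and not scaled between arrays, per the file headers. Flags coded 0 or 1 in the same deposited files say which spots were saturated, were outliers or stood well above background. The authors' deposited value table holds the same intensity times 1 constant per array (1.4484 for (E)-2-pentenal, 1.9797 for crotonaldehyde), found by setting its columns against the scanner values. The sources used here do not say how these were set.

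Outlier spots (10 and 4 on the aldehyde arrays) were left out of 43803 non-control spots, and none was saturated. For each spot log2 was taken and the array's 75th percentile subtracted on that scale, and the spots of a probe were then averaged. A gene took its probe of highest mean signal over the 2 aldehyde arrays. Of 5765 genes with several measured probes, 3.92% had differences over 1 apart. A RefSeq table of assembly TAIR10.1 gave loci and symbols for the array accessions of 34476 spots and was used for names only. The number of arrays limits the precision. Where only 1 aldehyde array measured a gene well above background, that level was divided by the larger of 2 signals of the dim array, the gene's own and the lowest that passed there (12.6 for (E)-2-pentenal, 10.6 for crotonaldehyde, unscaled), and given as at least N-fold. Such bounds, and folds with a side near these signals, are imprecise.

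Groups come from the sample titles. The comparison was 1 pair of compounds, with no test. The 47 lists of 828 members (735 compared) are described by counts and medians. Each count is to be read beside the 13.5% of all genes higher and 5.75% lower after (E)-2-pentenal. Members, lists and rules were chosen with earlier results of these data known. Named genes were the 12 highest and 12 lowest differences, the 4 greatest bounds each way, up to 5 members per list past 2-fold, the 5 each way on opposite sides of acetonitrile and the 6 most alike among genes 8-fold above it. Other genes, and all those of symbol families in the closing section, were named after their values were seen. Alternatives were median, quantile and cyclic loess scaling, normexp background correction (limma 3.58.1, R 4.3.3, offset 50, on the median spot signal and its local background), the mean over a gene's probes, 3 other filters on dim probes, the authors' deposited values, and 1.5-fold or 4-fold as the size rule. The steps were tested on simulated data with known differences. Sequences are not used here. Python 3.11.15 with pandas 2.3.3 was used.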

Additional observations from a re-analysis of the deposited data

Results flagged for a closer look

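Some genes stood on opposite sides of acetonitrile after the aldehydes, by 2-fold or more each way, which is why they are given here. There were 21 such genes above acetonitrile after (E)-2-pentenal and below it after crotonaldehyde, and 20 the other way, of 18411 genes. The difference between the aldehydes was not tested, since each had 1 array, and the crotonaldehyde array was on the other slide.

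BBX32, a B-box protein of light signalling, stood at 452, 1998, 4137 and 90.4 (acetonitrile, (E)-2-pentenal, 3-hepten-2-one, crotonaldehyde), a log2 difference of 4.47. AT5G59330 stood at 46.6, 373, 191 and 17.8, a difference of 4.39. The 5 genes named in each direction lead when genes are ordered by the smaller of their 2 departures from acetonitrile. Of those in this direction, BBX32 and AT5G39580 alone were highest after 3-hepten-2-one. AT5G39580 differed by 3.06, AT2G41800 by 3.72 and AT5G42830 by 3.35. After crotonaldehyde AT5G59330, AT5G42830 and AT2G41800 were dim, at 17.8, 19.2 and 26.2.

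In the other direction AT2G38240 differed by -5.16, CYP94C1 by -4.20 and AT5G28237 by -3.60, the last with levels of 491, 161, 345 and 1955. AT2G30830 stood at 62.7, 13.2, 163 and 273, a difference of -4.38, and UMAMIT33 at 42.4, 13.0, 32.4 and 255, a difference of -4.30. Both were near the lowest measurable signal after (E)-2-pentenal.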

How the results depend on the processing

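No paired analysis was possible because each group has 1 array. Against 2523 higher and 1076 lower genes after (E)-2-pentenal, median scaling gave 1865 and 2081, quantile normalization 2091 and 1394, cyclic loess 2517 and 995, and the authors' deposited values 2770 and 893. Normexp gave 1543 and 839, the mean over probes 2489 and 1058, no filter on dim probes 3545 and 3399, the brighter genes, with a mean signal over that of the median gene, 552 and 569 (fewer genes tested), and genes well above background on all 4 arrays 2508 and 1027. The 1.5-fold rule gave 4063 and 3063 and the 4-fold rule 769 and 141. Apart from the size rules, the cause of these shifts was not tested. Among 270 genes run, none that was past 2-fold changed sign in any setting. The 270 also include list members within 2-fold, whose sign was not followed. Of 14 list medians past 2-fold, 7 fell below it in some setting: auxin transport (0.93), morning clock (0.12) and cell cycle (0.60) over the brighter genes only, the ER body list (0.97) with median scaling only, epidermis and cutin (0.86 and 0.95) and XTH genes (0.93 and 0.94) with median scaling and over the brighter genes, and the PIF and shade list (0.97 and 0.59) with normexp and over the brighter genes. Signal near background limits the values of genes that were dim after crotonaldehyde, and with 1 array per group the spread between plants is unknown.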

Other observations

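Families outside the lists above, taken from gene symbols with 10 or more compared members and chosen after their values were seen, are given beside the 13.5% of all genes higher and 5.75% lower. Family counts and medians were not run under the other settings. Of 16 B-box proteins, zinc finger factors of light signalling, 12 were higher after (E)-2-pentenal and 2 lower, with a median of 2.02. BBX16 stood at 2329, 2071, 4965 and 222, in the order acetonitrile, (E)-2-pentenal, 3-hepten-2-one, crotonaldehyde, and BBX15 at 6166, 4085, 2562 and 568. Of 18 PIP genes, which encode water channels of the plasma membrane, 11 were higher and none lower, with a median of 1.43. PIP1A stood at 18655, 15213, 25344 and 2754 and PIP3 at 64012, 47976, 61275 and 12759.9, both bright and lowest after crotonaldehyde. Arabinogalactan proteins of the cell surface had 15 of 24 higher and none lower, led by AGP4 at 5502, 6825, 6164 and 291. LBD factors, which act at organ boundaries and in nitrogen response, had 10 of 14 higher and 1 lower, led by LBD39 at 3298, 1957, 1367 and 123. GATA factors had 9 of 19 higher and none lower, with a median of 0.94. KCS genes, which elongate fatty acids for wax, had 9 of 18 higher and 2 lower, led by KCS19 at 1332, 1012, 1202 and 52.0.

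Other families had negative medians, with smaller counts past 2-fold. MAPKKK kinases had none of 12 higher and 4 lower (33.3%, beside 5.75% of all genes), with a median of -0.72, led by MAPKKK21 at 563, 369, 1324 and 8594. The OTP and CRR genes, many of which encode RNA-editing or splicing factors of organelles, had medians of -0.70 (10 genes, 3 lower) and -0.68 (11 genes, 1 lower), and FTSH proteases of chloroplasts and mitochondria a median of -0.57 with none of 10 past 2-fold. Along the chromosomes, with genes not compared passed over, 4 runs of 5 neighbouring compared genes were all higher after (E)-2-pentenal. One held IGMT1, IGMT2, IGMT3 and IGMT4, which methylate indole glucosinolates, with a run median of 1.41. These are close copies whose probes can bind each other's transcripts. Another run held CER1, NAC003 and NAC004, with a median of 1.34. The run from GLU2 to RR3 passed over BHLH100, which was at least 259-fold higher after crotonaldehyde. How many such runs would arise by chance was not tested.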
